A study of Mus musculus with 6 samples.

Results

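Keratins are the intermediate filament proteins of epithelial cells, and their genes were read here in mouse tumors with and without incomplete radiofrequency ablation (iRFA). The members were the protein-coding rows whose GENCODE M21 symbol is Krt, a number and at most one letter. There were 50 of them among 32110 gene rows, of which 18297 were protein-coding. The annotation holds 53 such symbols, and Krt12, Krt13 and Krt88 were not analysed here. All tumors grew from CT26, a colon carcinoma line of the BALB/c strain, injected into the skin of the right flank of wild type male BALB/c mice. The untreated group held 3 tumors with no treatment. The iRFA group held 3 residual tumors taken 3 days after an electrode placed at the middle of the tumor had heated part of it. Each tumor gave 1 RNA-seq library of bulk tissue. CT26 is a single transplanted line, and the RNA of each library came from all cells of the piece taken.

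Keratins work in pairs. A type I (acidic) and a type II (basic or neutral) keratin join into a heterodimer, the building block of the filament, and most epithelia can be recognised by the pair they use. Single-layered (simple) epithelia make Krt8 and Krt18, often with Krt7, Krt19 or Krt20. The basal layer of the epidermis makes Krt5 and Krt14, the layers above it Krt1 and Krt10, and wounded skin and skin appendages Krt6, Krt16 and Krt17. The hair follicle has further keratins of its own in the inner root sheath, which molds the growing hair, and in the cortex and cuticle of the hair shaft. The 50 genes fell into 5 simple epithelial keratins, 15 epidermal keratins, 23 hair follicle and hair keratins, 2 keratins of mucosa and 5 in none of these classes.

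The mouse keratin genes lie in 2 clusters (GRCm38). There were 26 type I and 24 type II genes. On chromosome 11, 25 type I genes lay between 99232761 and 100269871. All 24 type II genes lay on chromosome 15 between 101347444 and 102004482, and Krt18 (102028180 to 102032027, plus strand) followed them as the only type I gene there. Krt8 lay next to it (101996698 to 102004482, minus strand), with 23.7 kb between the pair. The promoters of 4 members are shown because they stand for the 3 expression patterns described below. They are those of Krt8 and Krt18, and of the epidermal and the hair keratin with the highest mean level among the members with a promoter entry, the last pair chosen after the values were seen. Each is the 250 bases before the RefSeq transcription start, written 5′ to 3′ on the gene's strand (GRCm38.p6). Krt8 is chr15:102004343-102004592 (minus strand), Krt18 chr15:102027966-102028215 (plus), Krt14 chr11:100206031-100206280 (minus) and Krt71 chr15:101743098-101743347 (minus). The RefSeq start of each of the 4 lies inside the span that GENCODE gives the gene. For Krt14 the whole window lies inside that span (100203162 to 100207548). Its letters are therefore not those before the GENCODE start of Krt14. Capitals mark the TATA box letters TATAAA.
Krt8: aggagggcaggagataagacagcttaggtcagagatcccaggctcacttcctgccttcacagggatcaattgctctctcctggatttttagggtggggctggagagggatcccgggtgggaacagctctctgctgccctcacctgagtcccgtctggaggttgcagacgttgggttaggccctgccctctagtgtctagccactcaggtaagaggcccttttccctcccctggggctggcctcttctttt
Krt18: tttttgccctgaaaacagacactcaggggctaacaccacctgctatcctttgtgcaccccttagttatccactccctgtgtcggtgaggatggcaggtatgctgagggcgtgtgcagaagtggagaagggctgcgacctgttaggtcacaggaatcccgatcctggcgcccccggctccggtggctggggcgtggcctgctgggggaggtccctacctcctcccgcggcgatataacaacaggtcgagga
Krt14: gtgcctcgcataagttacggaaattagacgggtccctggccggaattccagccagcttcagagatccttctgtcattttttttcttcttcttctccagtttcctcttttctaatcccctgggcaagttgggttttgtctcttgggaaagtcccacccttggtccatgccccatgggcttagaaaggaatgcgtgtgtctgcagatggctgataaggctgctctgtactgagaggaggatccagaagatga
Krt71: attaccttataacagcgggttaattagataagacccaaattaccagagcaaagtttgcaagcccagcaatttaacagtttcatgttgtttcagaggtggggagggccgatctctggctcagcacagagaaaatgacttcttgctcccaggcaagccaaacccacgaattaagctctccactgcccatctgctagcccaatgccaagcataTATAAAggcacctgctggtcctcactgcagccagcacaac

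The RefSeq table held promoters of 34 of the 50 keratins. TATAAA, searched on both strands, was in 16 of the 34 (47.1%) and in 12.4% of all 32851 promoters of this length. By class it was in 13 of 17 hair keratin promoters, 1 of 8 epidermal (Krt10) and 1 of 4 simple epithelial (Krt20). It lay within 50 bases of the start in 14 of the 34 keratin promoters (41.2%), against 3.50% of all promoters. In Krt71 it began 40 bases before the start, and Krt8, Krt18 and Krt14 had none in the window. The Krt14 window, inside the GENCODE span of its gene, is 1 of the 8 epidermal promoters counted. For the members whose promoters are not shown, the place of the window against the GENCODE start was not examined. The GC box GGGCGG was in 2 keratin promoters (5.88%, against 32.7% of all). The E-box CANNTG was in 26 (76.5%, against 66.2% of all). The AP-1 letters TGANTCA (6.75% of all promoters) and the grainyhead letters AACCGGTT (0.116%) were in none of the 34. These are matches of letters in related genes, and no promoter activity was measured.

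The values are FPKM (fragments scaled to transcript length and to the mapped fragments of the library), so levels can be compared between genes, but the files give no counts and the depth is unknown. Summed FPKM per library ran from 313940 to 345320. The library labelled untreated replicate 3 stood apart from its group. Over all tested genes its log2(FPKM + 1) values correlated with the 3 iRFA libraries at r = 0.983 to 0.987 and with untreated replicates 1 and 2 at r = 0.807 and 0.801, and untreated replicates 1 and 2 correlated with each other at r = 0.983. The keratin comparisons are therefore given with and without that library. The CT26 label was not tested, and 15 colon epithelial genes read beside it summed to 7.73 to 13.2 FPKM in the 6 libraries. Among them, Car2 (carbonic anhydrase 2) was at 2.15, 1.90 and 4.17 FPKM in the untreated and 4.41 to 5.11 FPKM in the iRFA libraries. Lgals4 (galectin 4) ran the other way, at 3.93, 2.94 and 0.401 FPKM in the untreated and 0.123 to 0.535 FPKM in the iRFA libraries. Cdx2, the intestinal master regulator, was listed at 0 in 5 libraries and at 0.0231 FPKM in iRFA replicate 3.

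Keratin RNA was most abundant in 2 of the untreated libraries. The 50 genes summed to 785 FPKM in untreated replicate 1 and 1154 FPKM in untreated replicate 2. In untreated replicate 3 the sum was 4.44 FPKM, and in iRFA replicates 1, 2 and 3 it was 3.74, 38.9 and 7.17 FPKM. The untreated group thus held both the highest and one of the lowest libraries, and its range enclosed that of the iRFA group apart from iRFA replicate 1. Of the 50 genes, 27 stayed under 1 FPKM in every library, 11 reached 10 FPKM in at least 1, and 5 were above 0 in all 6. Untreated replicate 2 had the highest value for 20 genes, untreated replicate 1 for 7 and iRFA replicate 2 for 23, while none peaked in the other 3 libraries. The peaks differed between classes. Of 15 epidermal keratins 13 peaked in untreated replicate 2, and of 23 hair keratins 21 peaked in iRFA replicate 2. All 5 simple epithelial keratins peaked in untreated replicate 1, but mostly by a small margin. The ratio of untreated replicate 2 to 1 was 0.927 for Krt18, 0.930 for Krt19, 0.946 for Krt8 and 0.996 for Krt7. The share of all genes that peak in each library was not counted.

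**Figure D1:**
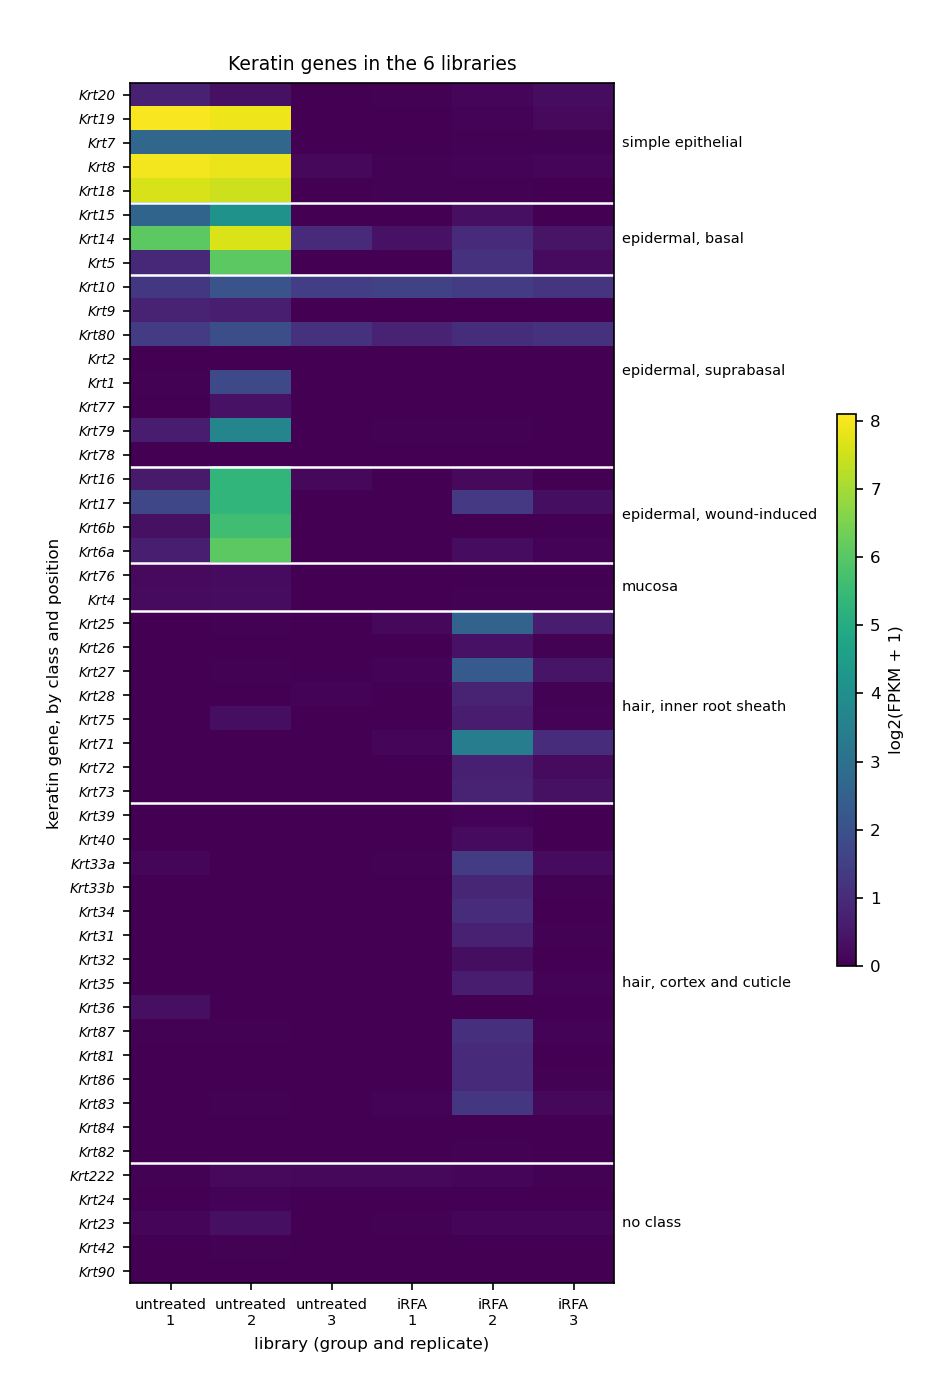
Heat map of the 50 keratin genes (vertical axis, by class and by position along the chromosome) in the 6 libraries (horizontal axis), colored by log2(FPKM + 1). Simple epithelial keratins are bright in untreated replicates 1 and 2, wound-induced epidermal keratins in untreated replicate 2, and hair keratins in iRFA replicate 2.

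The simple epithelial keratins were the most abundant class in untreated replicates 1 and 2. Krt19, a short type I keratin that lacks a tail domain (chr11:100140810-100148665), had 257, 239 and 0 FPKM in the 3 untreated libraries, in the order of their replicate numbers, and 0, 0.0565 and 0.155 FPKM in the 3 iRFA libraries. Krt8, the type II partner in simple epithelia, was at 247, 234 and 0.122 FPKM in the untreated and 0.0265, 0.0535 and 0.0800 FPKM in the iRFA libraries. Krt18, its type I partner, was at 194, 180 and 0 FPKM in the untreated and 0.0270, 0.0365 and 0 FPKM in the iRFA libraries. These 3 genes were thus high in untreated replicates 1 and 2 and at or near 0 in the other 4 libraries, and for Krt19 and Krt18 the groups overlapped through untreated replicate 3. Krt7, a type II keratin of ducts and mesothelium (chr15:101411043-101430313), was at 5.44, 5.41 and 0.0113 FPKM in the untreated and 0, 0.0297 and 0.0444 FPKM in the iRFA libraries. Krt20, a type I keratin of the intestinal lining (chr11:99428403-99438150), was at 0.687, 0.295 and 0 FPKM in the untreated and 0.0269, 0.0816 and 0.217 FPKM in the iRFA libraries. Krt7 repeated the pattern of Krt8 at a lower level. Krt20 never reached 1 FPKM.

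As a class the simple epithelial keratins summed to 705, 659 and 0.133 FPKM in the untreated and 0.0804, 0.258 and 0.496 FPKM in the iRFA libraries. That was 89.8% of all keratin FPKM in untreated replicate 1 and 57.1% in untreated replicate 2. Both libraries held the class at almost the same level. The ratio of untreated replicate 2 to replicate 1 had a median of 0.930 over the 5 genes (range 0.430 to 0.996). That median was 0.987 over the 15018 tested genes at 0.5 FPKM or more in either library and above 0 in both. The summed type I to type II ratio of the class was 1.79 in untreated replicate 1 and 1.75 in replicate 2.

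On the log2(FPKM + 1) scale, which understates the change of low genes, Krt8 differed between iRFA and untreated by -5.26 ± 2.15 (SE, n = 3 per group, limma adjusted p = 0.250). The same fit gave -5.21 ± 2.21 for Krt19, -5.00 ± 2.10 for Krt18 and -1.76 ± 0.75 for Krt7, each with an adjusted p of 0.250. None passed the 0.05 threshold. Once untreated replicate 3 was left out, all 4 fell, by -7.84 ± 0.06 for Krt8 (limma adjusted p = 7.4e-07), -7.87 ± 0.08 for Krt19 (1.1e-06), -7.52 ± 0.07 for Krt18 (7.4e-07) and -2.65 ± 0.08 for Krt7 (9.3e-06). In that fit 33.9% of all genes were called higher and 30.3% lower, so a call there is common. With untreated replicates 1 and 2 left out instead, the values were -0.09 for Krt8, 0.10 for Krt19, 0.03 for Krt18 and 0.02 for Krt7, and none of them was called. In bulk tissue, fewer cells of a type and less RNA per cell cannot be told apart.

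Markers of another simple epithelium moved with these keratins. The mesothelium, the flat lining of the body cavities, makes Krt7, Krt8, Krt18 and Krt19. Of 12 mesothelial genes, all 12 were at 1 FPKM or more in untreated replicates 1 and 2, and 1 or 2 of them in each other library. They summed to 598, 554 and 83.7 FPKM in the untreated and 39.3 to 68.6 FPKM in the iRFA libraries. The most abundant was Gas1, a growth arrest gene that is also made outside the mesothelium, at 44.7 to 81.1 FPKM in the untreated and 37.1 to 66.1 FPKM in the iRFA libraries. Msln (mesothelin) was at 102, 96.2 and 1.52 FPKM in the untreated and 0.809 to 1.00 FPKM in the iRFA libraries. Upk3b, a uroplakin of mesothelium, was at 134, 113 and 0 FPKM in the untreated, at 0.0440 FPKM in iRFA replicate 1 and at 0 in iRFA replicates 2 and 3. Over the list the ratio of untreated replicate 2 to 1 had a median of 0.953 (range 0.602 to 1.24). That median was 0.987 over all tested genes and 0.976 over macrophage genes. A ratio near 1 was therefore not particular to this list or to the simple keratins. All 12 had a negative fold change with a median of -3.11, 0 were called with all libraries and 11 were called lower without untreated replicate 3, against 30.3% of all genes. The part of mesothelial RNA in the simple keratin values was not tested.

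General epithelial genes showed a weaker form of the same split. The 20 epithelial adhesion and identity genes summed to 48.3, 56.3 and 8.26 FPKM in the untreated and 10.1 to 11.7 FPKM in the iRFA libraries. Epcam, an epithelial adhesion molecule, was at 18.6, 18.1 and 0.286 FPKM in the untreated and 0.203, 0.154 and 0.422 FPKM in the iRFA libraries. Cgn (cingulin, of tight junctions) was at 14.6, 14.6 and 0 FPKM in the untreated and 0 to 0.0217 FPKM in the iRFA libraries. These genes had the 2-library pattern of Krt8. Cdh1 (E-cadherin), in contrast, was at 1.66, 3.42 and 1.26 FPKM in the untreated and 2.50, 1.74 and 2.36 FPKM in the iRFA libraries, and the groups overlapped. Spint1, an epithelial protease inhibitor, was at 3.73 to 5.45 FPKM in the untreated and 6.15 to 7.29 FPKM in the iRFA libraries, without overlap. Being higher without overlap held for 11.4% of all tested genes. Of the 8 genes of the list that were tested, 6 had a negative and 2 a positive fold change, and 0 were called with all libraries. Without untreated replicate 3, 4 were lower and 1 was higher, against 30.3% and 33.9% of all genes.

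**Figure D2:**
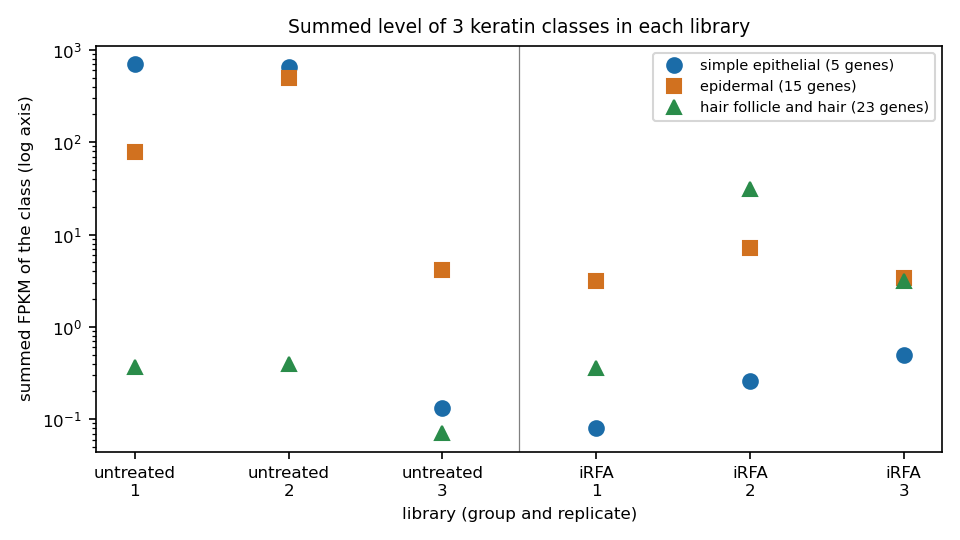
Summed FPKM (vertical, log axis) of the simple epithelial, epidermal and hair keratins in each library (horizontal), 1 point per class and library. Simple epithelial keratins stand at 705 and 659 FPKM in untreated replicates 1 and 2 and under 0.5 FPKM elsewhere, while hair keratins reach 31.2 FPKM in iRFA replicate 2.

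The epidermal keratins split untreated replicate 2 from untreated replicate 1, which the simple keratins did not. The 15 genes summed to 79.3, 494 and 4.10 FPKM in the untreated and 3.11, 7.20 and 3.38 FPKM in the iRFA libraries. In the basal layer, Krt14 (chr11:100203162-100207548) was at 65.2, 198 and 0.950 FPKM in the untreated and 0.324, 0.946 and 0.334 FPKM in the iRFA libraries. Its partner Krt5 (chr15:101707070-101712898) was at 0.875, 65.7 and 0 FPKM in the untreated and 0, 1.21 and 0.178 FPKM in the iRFA libraries. Krt15, a type I keratin of basal cells and of the hair follicle bulge, was at 5.12, 16.8 and 0 FPKM in the untreated and 0, 0.252 and 0 FPKM in the iRFA libraries. Krt5 was therefore below 1 FPKM in untreated replicate 1, where Krt14 was at 65.2 FPKM. The summed type I to type II ratio of the epidermal keratins was 18.7 in that library and 1.51 in untreated replicate 2.

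The wound-induced keratins stood out in the same library. Krt6a (chr15:101689910-101694307), a type II keratin of wounded epidermis and of the follicle, was at 0.618, 65.6 and 0 FPKM in the untreated and 0, 0.211 and 0.0647 FPKM in the iRFA libraries. Krt6b (chr15:101676023-101680287) was at 0.299, 48.1 and 0 FPKM in the untreated libraries and was listed at 0 in all 3 iRFA libraries. The coding sequences of Krt6a and Krt6b were 97.8% identical, so reads of one can be assigned to the other, and their separate values are uncertain. Krt16 (chr11:100246091-100248902), the type I partner of Krt6, was at 0.5004, 39.7 and 0.135 FPKM in the untreated and 0, 0.142 and 0 FPKM in the iRFA libraries. Krt17 (chr11:100256217-100261029), of appendages and wounds, was at 2.29, 39.4 and 0 FPKM in the untreated and 0, 1.56 and 0.236 FPKM in the iRFA libraries. All 4 had their one high value in untreated replicate 2 and were low in the rest. Their ratio of untreated replicate 2 to 1 had a median of 92.7 (range 17.2 to 161). A ratio of 3 or more was found in 115 of 15018 tested genes (0.766%).

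Above the basal layer the keratins divided. Krt10, the suprabasal type I keratin (chr11:99385254-99389364), was at 1.48, 3.19 and 1.80 FPKM in the untreated and 1.98, 1.73 and 1.34 FPKM in the iRFA libraries, and it was the only keratin at 1 FPKM or more in every library. Krt80, a type II keratin of differentiating epithelia (chr15:101347444-101370162), was at 1.63, 2.81 and 1.22 FPKM in the untreated and 0.768, 1.10 and 1.23 FPKM in the iRFA libraries. Neither had the on and off pattern of the other keratins. Krt79 (chr15:101929332-101940324), known in mouse skin from the duct of the hair follicle and sebaceous gland, was at 0.584, 11.9 and 0 FPKM in the untreated and 0.0381, 0.0248 and 0 FPKM in the iRFA libraries. Krt1, the partner of Krt10, which fell outside the naming rule and was added after its values were seen, was at 0.0290, 2.48 and 0 FPKM in the untreated libraries and was listed at 0 in the iRFA libraries. Krt10 thus had RNA in 4 libraries in which that of its partner was listed at 0. The other 4 suprabasal genes (Krt2, Krt9, Krt77 and Krt78) reached at most 0.712 FPKM.

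In the comparison of iRFA with untreated, Krt14 differed by -4.29 ± 1.68 (SE, n = 3 per group, limma adjusted p = 0.250) and Krt15 by -2.15 ± 1.02 (adjusted p = 0.250). Krt5 gave -1.86 ± 1.60 (adjusted p = 0.426), and Krt6a, Krt6b, Krt16 and Krt17 gave -1.80 to -2.13 with adjusted p of 0.343 to 0.374. Krt79 gave -1.42 ± 0.95 (adjusted p = 0.326), Krt80 -0.48 ± 0.24 (0.251) and Krt10 -0.20 ± 0.23 (0.547). No epidermal keratin passed. Without untreated replicate 3 there were 3 that fell, by -6.25 ± 0.47 for Krt14 (limma adjusted p = 1.7e-04), -3.28 ± 0.44 for Krt15 (0.0015) and -0.65 ± 0.19 for Krt80 (0.0296), while Krt5 (adjusted p = 0.123) and all 4 wound-induced keratins (0.0557 to 0.122) did not pass. That is 3 of the 10 tested epidermal keratins, near the 30.3% of all genes that were lower in that fit. Without untreated replicate 2 the values shrank to 0.01 for Krt5, -0.22 for Krt6a, -0.19 for Krt6b, -0.32 for Krt16, -0.30 for Krt17, -0.30 for Krt79 and 0.02 for Krt10, and those of Krt14 and Krt15 to -2.91 and -1.20.

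**Figure D3:**
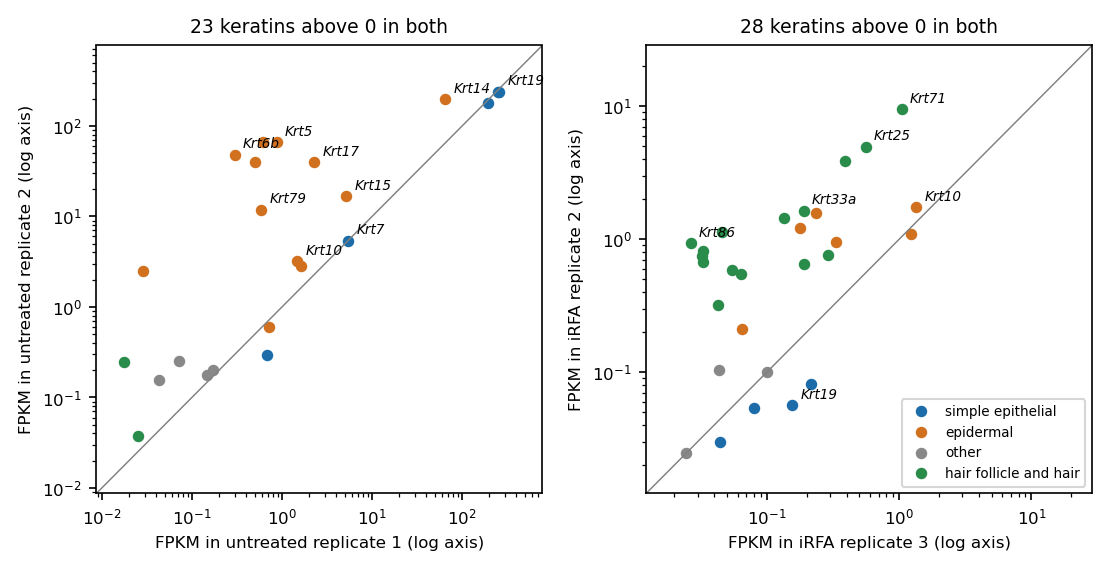
Keratin FPKM in untreated replicate 2 against replicate 1 (left, 23 genes above 0 in both) and in iRFA replicate 2 against replicate 3 (right, 28 genes above 0 in both), on log axes, 1 point per gene colored by class, with the line of equal values. On the left the abundant simple keratins lie on the line and most epidermal keratins above it, and on the right the hair keratins lie above it.

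Other epidermal genes differed between untreated replicates 1 and 2 unevenly. The 25 genes of the cornified envelope and of epidermal differentiation summed to 573, 681 and 10.7 FPKM in the untreated and 9.07 to 13.2 FPKM in the iRFA libraries. Most of that was Lgals7 (galectin 7, of stratified epithelia) at 446, 463 and 0.543 FPKM in the untreated and 0.656 to 2.19 FPKM in the iRFA libraries, and Dmkn (dermokine) at 87.6, 89.3 and 0 FPKM in the untreated, at 0.120 FPKM in iRFA replicate 2 and at 0 in the other iRFA libraries. Both were nearly level between untreated replicates 1 and 2, as Krt8 was. Sfn (14-3-3 sigma) was at 4.86, 21.4 and 6.79 FPKM in the untreated and 4.98 to 6.37 FPKM in the iRFA libraries. Trp63 (p63, the transcription factor of basal epidermis) was at 0.716, 1.90 and 0.197 FPKM in the untreated and 0.134 to 0.256 FPKM in the iRFA libraries. Krtdap, Calm4 and Klk7, genes of the upper epidermis chosen after their values were seen, were at 0.776, 0.0621 and 0.0601 FPKM in untreated replicate 1 and at 11.5, 12.7 and 6.96 FPKM in replicate 2. These last 3 followed Krt6a rather than Krt8. Of the 25 genes, 7 were at 1 FPKM or more in untreated replicate 1 and 18 in replicate 2. All 15 tested members had a negative fold change (median -0.96), of which 0 were called with all libraries and 7 were called lower without untreated replicate 3, against 30.3% of all genes. Krtdap, Calm4 and Klk7 reached the mean of 0.5 FPKM only through untreated replicate 2. For such members the sign was largely set by the filter, so this count describes the tested genes and not the list. The part of skin RNA in the epidermal keratin values was not tested.

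The genes that anchor keratin filaments at desmosomes and hemidesmosomes were read as a list of 23. It summed to 211, 266 and 76.0 FPKM in the untreated and 72.2 to 83.3 FPKM in the iRFA libraries. Plec (plectin), which links intermediate filaments of many cell types, was at 42.0, 39.6 and 49.0 FPKM in the untreated and 48.7, 52.7 and 44.3 FPKM in the iRFA libraries. Jup (plakoglobin, of desmosomes) was at 40.9, 42.9 and 2.39 FPKM in the untreated and 1.95 to 2.55 FPKM in the iRFA libraries. Perp, a desmosomal membrane protein, was at 25.2, 50.9 and 0.0543 FPKM in the untreated and 0.186 to 1.30 FPKM in the iRFA libraries. Plec was thus level where Jup and Perp were not. Dsp (desmoplakin), which binds keratins to the desmosome, was at 4.57, 11.1 and 0.0220 FPKM in the untreated and 0.0322, 0.420 and 0.0621 FPKM in the iRFA libraries, and differed by -1.82 ± 0.89 (SE, n = 3 per group, limma adjusted p = 0.250), and by -2.82 ± 0.35 without untreated replicate 3 (adjusted p = 0.0010). Of 18 tested members, 16 had a negative fold change (median -1.30), 0 were called, and without untreated replicate 3 there were 14 lower and 2 higher, against 30.3% and 33.9% of all genes. Members that reached the mean of 0.5 FPKM only through untreated replicates 1 and 2 had their sign largely set by the filter.

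The hair keratins were the reverse case, since they were near 0 in the untreated tumors. The 23 genes summed to 0.367, 0.399 and 0.0705 FPKM in the untreated and 0.360, 31.2 and 3.12 FPKM in the iRFA libraries. Krt71, the type II keratin of the inner root sheath (chr15:101733949-101743109), was listed at 0 in all 3 untreated libraries and was at 0.0948, 9.56 and 1.04 FPKM in the iRFA libraries. Krt25 and Krt27, type I keratins of the inner root sheath that are named because their groups did not overlap, were chosen after their values were seen. Krt25 was at 0, 0.0286 and 0 FPKM in the untreated and 0.117, 4.98 and 0.557 FPKM in the iRFA libraries. Krt27 was at 0, 0.0367 and 0 FPKM in the untreated and 0.0668, 3.85 and 0.387 FPKM in the iRFA libraries. All 3 were highest in iRFA replicate 2, about an order of magnitude lower in replicate 3 and barely above 0 in replicate 1. Within the cortex and cuticle class the highest was Krt33a, a type I hair shaft keratin, at 0.0690, 0 and 0 FPKM in the untreated and 0.0251, 1.64 and 0.190 FPKM in the iRFA libraries.

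In iRFA replicate 2, 22 of the 23 hair keratins were above 0 and 8 were at 1 FPKM or more. They made up 80.2% of its keratin FPKM, with 21.4 FPKM from the 8 inner root sheath and companion layer genes and 9.77 FPKM from the 15 cortex and cuticle genes. In iRFA replicate 3, 15 of the 23 were above 0 and the corresponding sums were 2.61 and 0.517 FPKM. With no filter on level, 22 of the 23 hair keratins were higher in iRFA replicate 2 than in replicate 3 and 0 were lower, against 40.5% of all rows higher. Only Krt25 and Krt71 reached 0.5 FPKM in both libraries, with ratios of 8.93 and 9.15, and the ratios of the others rest on values near 0 in iRFA replicate 3. The background was the 14531 tested genes at 0.5 FPKM or more in either library and above 0 in both. Of these, 95 (0.654%) had a ratio of 3 or more. Testing required a mean of 0.5 FPKM over the 6 libraries, which among the hair keratins only Krt25, Krt27 and Krt71 reached. That share is therefore not matched to the other hair keratins. The type I to type II ratio of the inner root sheath keratins was 0.860 in iRFA replicate 2 and 0.642 in replicate 3. The coding sequences of hair shaft keratins are close to each other, as in Krt33a and Krt34 (93.9% identical), and 10 of the 50 keratins were 90% or more identical to another, so the values of single shaft keratins are uncertain.

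On the log2(FPKM + 1) scale Krt25 differed between iRFA and untreated by 1.11 ± 0.63 (SE, n = 3 per group, limma adjusted p = 0.274) and Krt27 by 0.93 ± 0.58 (adjusted p = 0.299). Krt71, with every untreated library at 0, gave an adjusted p of 0.263. None passed, and the spread within the iRFA group was as large as the difference. Without untreated replicate 3 their adjusted p were 0.205 to 0.261 in the same test. Without iRFA replicate 2 the fold changes fell to 0.39 for Krt25 and 0.27 for Krt27, and the fitted value of Krt71 went from 1.52 to 0.58, with adjusted p of 0.457 to 0.468.

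Other hair genes moved with the hair keratins. Of 49 keratin-associated protein genes (Krtap), whose products cross-link keratins in the hair shaft, 45 were above 0 in iRFA replicate 2 and 44 had their highest value there. They summed to 0.369, 0.582 and 0 FPKM in the untreated and 0.252, 35.4 and 4.27 FPKM in the iRFA libraries. Tchh (trichohyalin, of the inner root sheath) was at 0.0587, 0.291 and 0.0341 FPKM in the untreated and 0.0489, 5.48 and 0.580 FPKM in the iRFA libraries. Its ratio of iRFA replicate 2 to 3 was 9.44. The list of 11 follicle genes other than keratins summed to 12.0, 13.0 and 3.04 FPKM in the untreated and 3.01, 9.49 and 3.33 FPKM in the iRFA libraries. Its most abundant members did not follow the hair keratins. Hoxc13, a regulator of hair keratins, was at 3.52, 3.75 and 2.55 FPKM in the untreated and 2.23, 2.22 and 1.98 FPKM in the iRFA libraries, without overlap. Being lower without overlap held for 10.5% of all tested genes. Padi3, which modifies trichohyalin, was at 6.18, 7.42 and 0.0154 FPKM in the untreated and 0.0601, 0.346 and 0.144 FPKM in the iRFA libraries. Of the 3 follicle genes tested, 1 had a positive and 2 a negative fold change and 0 were called. Without untreated replicate 3, 2 were lower (30.3% of all genes) and 0 higher. The part of hair follicles in the sampled tissue was not tested.

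**Figure D4:**
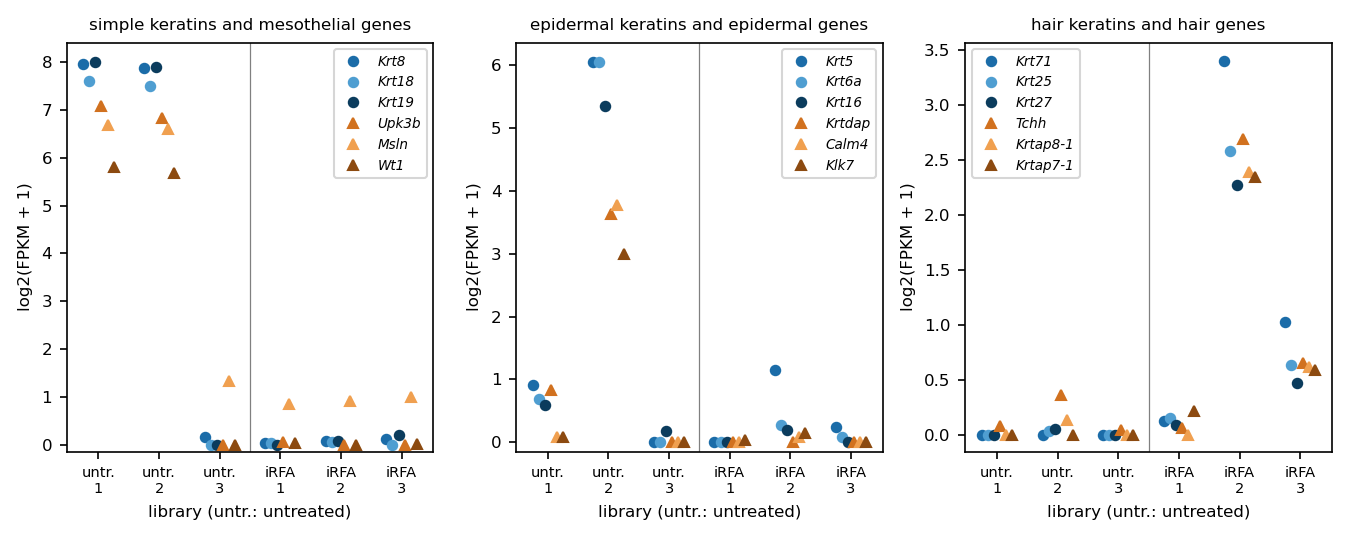
Level as log2(FPKM + 1) (vertical) of 3 keratins (circles) and 3 other genes (triangles) per panel in the 6 libraries (horizontal), 1 point per gene and library, with genes chosen after their values were seen. The simple keratins and mesothelial genes shown are high in untreated replicates 1 and 2, and the epidermal genes shown in untreated replicate 2. The hair genes shown are high in iRFA replicate 2 and less in replicate 3. Genes of the same lists with other patterns, such as Gas1, Lgals7, Dmkn, Hoxc13 and Padi3, are not shown.

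The remaining classes were low throughout. Krt4, a type II keratin of mucosa, was at 0.174, 0.200 and 0 FPKM in the untreated and 0, 0.0246 and 0.0245 FPKM in the iRFA libraries. Krt222, the highest of the 5 genes in no class, was at 0.0433, 0.156 and 0.133 FPKM in the untreated and 0.130, 0.103 and 0.0436 FPKM in the iRFA libraries. Both were at 0.200 FPKM or lower in every library, and the groups overlapped.

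Of 48 pairs of neighbouring keratins, 30 had their highest value in the same library and 18 in different ones. The close pairs below, chosen after their values were seen, are among the 18. Krt15 and Krt19 lie 4.88 kb apart, and Krt15 was highest in untreated replicate 2 while Krt19 was highest in untreated replicate 1. Krt5 and Krt71 lie 21.1 kb apart, and the first was highest in untreated replicate 2 and the second in iRFA replicate 2. Krt7 and the hair keratin Krt87, 0.724 kb apart and on opposite strands, were highest in untreated replicate 1 and iRFA replicate 2. In each of these 3 pairs the neighbours belong to different classes. Other pairs among the 18 share a class. Krt35 and Krt36, of cortex and cuticle, lie 5.765 kb apart and were highest in iRFA replicate 2 and untreated replicate 1. Krt79 and Krt78, both suprabasal, lie 5.676 kb apart and were highest in untreated replicate 2 and iRFA replicate 2. Krt36 and Krt78 reached at most 0.256 and 0.0152 FPKM.

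Over the family, 17 keratins had a mean of at least 0.5 FPKM and were tested together with all other such genes (15560 in all). The 33 others were too low for the test. With all 6 libraries 0 of the 17 passed an adjusted p of 0.05 in limma, as did 0% of all tested genes. At an unadjusted limma p under 0.05, 0 keratins were higher (7.94% of all genes) and 1, Krt14, was lower (6.75% of all genes). Without overlap between the groups, 3 were higher after iRFA (Krt25, Krt27 and Krt71, against 11.4% of all genes) and 2 were lower (Krt8 and Krt14, against 10.5% of all genes). The margins of the last pair were small, 0.122 against 0.0800 FPKM for Krt8 and 0.950 against 0.946 FPKM for Krt14. The fold change was negative for 14 of the 17 and positive for 3, with a median of -1.86 against 0.02 over all tested genes. Most of the 17 reached the mean of 0.5 FPKM only through the group or library where they were high, so this count and median describe them and not the family. Over all 50 keratins with no filter, 27 were negative and 23 positive, with a median of -0.01, the same as over all 32110 rows.

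Without the library labelled untreated replicate 3, 7 of the 17 keratins passed as lower (30.3% of all genes did) and 0 as higher (33.9% of all genes did). The 7 were Krt7, Krt8, Krt14, Krt15, Krt18, Krt19 and Krt80, and the median fold change was -2.97. Leaving out any other single library gave 0 keratins, and without untreated replicate 2 the median was -0.30. With untreated replicates 1 and 2 both left out, the median was 0.03 and 0 keratins passed. The negative median of the 17 tested keratins in the group comparison therefore rested on untreated replicates 1 and 2. The direction of each single keratin did not. Without these 2 libraries Krt25, Krt27 and Krt71 kept their positive values (1.13, 0.95 and 1.52). Krt8, Krt10, Krt14, Krt16 and Krt80 stayed negative, at -0.07 to -0.37.

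**Figure D5:**
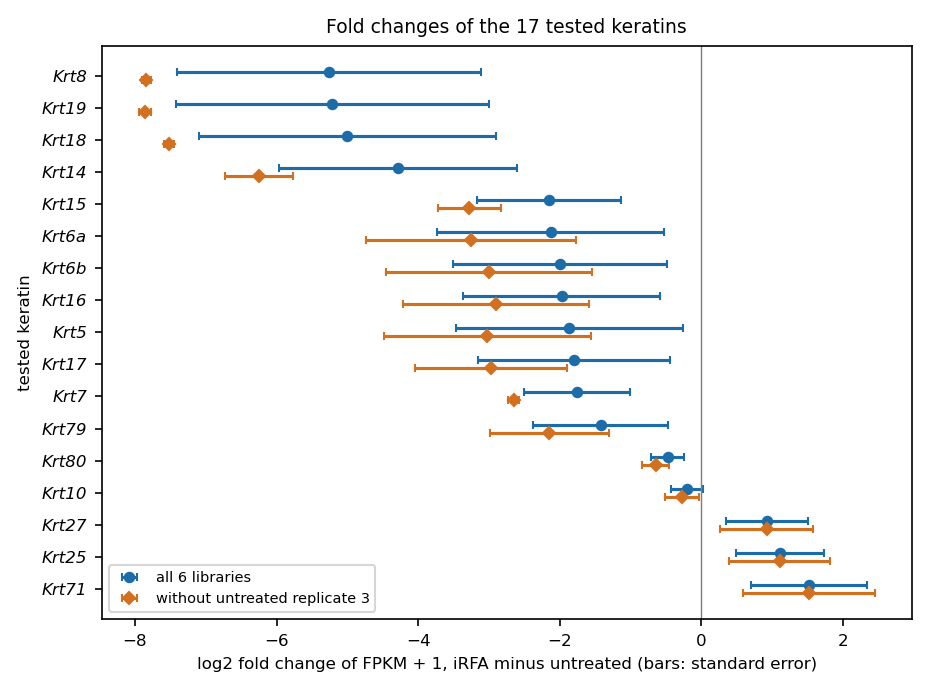
Log2 fold change of FPKM + 1, iRFA minus untreated (horizontal), of the 17 tested keratins (vertical), with bars for the standard error, from all 6 libraries (circles) and without untreated replicate 3 (diamonds). Krt8, Krt18 and Krt19 move from about -5 with wide bars to below -7 with narrow bars, and the 3 hair keratins stay above 0 in both.

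Intermediate filament genes other than keratins, including the nuclear lamins of most cells, were read beside the keratins. Vim (vimentin, of mesenchymal cells) was at 183, 180 and 357 FPKM in the untreated and 339, 374 and 314 FPKM in the iRFA libraries, and differed by 0.58 ± 0.29 (SE, n = 3 per group, limma adjusted p = 0.251), and by 0.91 ± 0.08 without untreated replicate 3 (adjusted p = 3.4e-04). Lmna, a nuclear lamin of most cells, was at 74.5, 78.0 and 113 FPKM in the untreated and 90.6 to 120 FPKM in the iRFA libraries. Lmnb1, another lamin, was at 20.7, 22.0 and 51.6 FPKM in the untreated and 41.7 to 48.3 FPKM in the iRFA libraries. Vim was thus higher than any keratin in all but untreated replicates 1 and 2, where Krt19 and Krt8 exceeded it, as did Krt18 in replicate 1 and Krt14 in replicate 2. Des (desmin, of muscle) was at 27.8, 25.6 and 0.794 FPKM in the untreated and 5.33, 4.32 and 3.96 FPKM in the iRFA libraries, and differed by -1.01 ± 1.10 (adjusted p = 0.522 in the same test), and by -2.33 ± 0.12 without untreated replicate 3 (adjusted p = 4.6e-05). Of the 11 tested filament genes other than keratins, 5 had a positive and 6 a negative fold change (median -0.32), 0 were called, and without untreated replicate 3 there were 4 higher and 6 lower, against 33.9% and 30.3% of all genes.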

How the data were processed

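RNA-seq was made from total RNA of 3 untreated and 3 iRFA tumors, 1 library each, grouped by the labels. The deposited values are FPKM per gene, which the authors made with FastQC, HISAT2 on GRCm38 and StringTie. Versions, strand setting and read depth are not given in the sources used here. FPKM sums differ between libraries, and a gene can be listed at 0 because none was assigned to it. Gene names came from GENCODE M21, which named 32060 of 32110 rows.

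Genes whose mean reached 0.5 FPKM were tested on log2(FPKM + 1) with limma 3.58.1 in R 4.3.3 (trended variance, two-sided, Benjamini-Hochberg over 15560 genes, threshold 0.05). In every list, a member that reached the mean of 0.5 FPKM only through libraries of a single group had its sign largely set by this filter. The fit was tested on simulated data. Nothing says that the tumors are more than numbered replicates, so p-values measure only the spread between these samples, and 3 against 3 libraries cannot go below an exact permutation p of 0.1 for a single value. Alternatives were a pseudocount of 0.1, other filters and scalings, a replicate block, variance trend off and leaving out libraries. Leaving out untreated replicates 1 and 2 together was added after the data were seen.

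Values in every library are given for the 5 simple epithelial keratins, for other keratins with a mean of at least 1 FPKM and for the highest member of a class without one. Up to 3 members of highest mean are named from each list of other genes, and Vim, Des, Epcam, Cdh1, Dsp, Plec, Trp63, Tchh, Cdx2 and Msln always. The members and lists were chosen with earlier results of these data known. Promoters came from RefSeq (GRCm38.p6) and coding sequences from GENCODE M21. No protein sequence is shown. The values of 1 gene that this rule names are not reported here.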

Additional observations from a re-analysis of the deposited data

How the results depend on the processing

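The count of keratins passing limma stayed at 0 with every pseudocount, filter, scaling, variance setting and the replicate block, and the smallest adjusted p of a keratin was 0.242 to 0.363 over these (0.339 with the replicate block, median fold change -1.86). Whether the replicate numbers pair the samples could not be told. Deviations of same-numbered libraries from their group means correlated at -0.09, -0.11 and -0.23, but untreated replicate 3 dominated the deviations of its group. With iRFA replicate 3, for instance, untreated replicates 1 and 2 gave 0.24 and 0.19, and untreated replicate 3 gave -0.23. Leaving out 1 library in turn gave 0 to 7 keratins lower, 0 to 4711 genes lower and 0 to 5269 genes higher over all genes, the highest value each time without untreated replicate 3, and 2 to 12 keratins lower without overlap. With untreated replicates 1 and 2 both left out, 1 gene was higher. Without overlap, 1 keratin was higher where the filter was a mean of 1 FPKM, which drops Krt25 and Krt27, and 1 was lower under median-of-ratios scaling. The median fold change was -3.28 with a pseudocount of 0.1, -2.71 with equal library sums, -1.75 with quantile normalization and -0.01 with no filter (50 keratins, most near 0). The sign turned for Krt10 under quantile normalization (0.0099). Over the fits without 1 library Krt10 ran from -0.36 to 0.022 and Krt5 from -3.02 to 0.0068, with the sign turned only without untreated replicate 2. With untreated replicates 1 and 2 both left out it turned for Krt5 (0.46), Krt6a (0.12), Krt6b (0, listed at 0 in all 4 libraries left), Krt7 (0.019), Krt15 (0.11), Krt17 (0.55), Krt18 (0.030), Krt19 (0.096) and Krt79 (0.030), each against a lone untreated library that was taken to spread as the iRFA libraries do. Among the single keratins 234 alternative values kept their direction and side of the threshold, 12 turned or went to 0 and 7 came to pass it. Depth is unknown, so no interval can be given for values near 0.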

Other observations

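Lists of other cell types also split untreated replicates 1 and 2 from the other libraries. The macrophage and muscle lists in addition set untreated replicate 3 apart from the iRFA libraries. The 12 macrophage genes summed to 1565, 1550 and 3085 FPKM in the untreated and 3406 to 3786 FPKM in the iRFA libraries, led by Lyz2 (lysozyme), C1qa and C1qb (complement). The 12 fibroblast genes summed to 3831, 4484 and 1113 FPKM in the untreated and 995 to 1348 FPKM in the iRFA libraries. Col1a1, a fibrillar collagen, was at 1484, 1787 and 79.0 FPKM in the untreated and 61.6 to 161 FPKM in the iRFA libraries. Col3a1, another fibrillar collagen, was at 830, 940 and 301 FPKM in the untreated and 265 to 378 FPKM in the iRFA libraries. Of the 12, 10 had a negative and 2 a positive fold change. Col6a1, of collagen VI, was at 360, 408 and 515 FPKM in the untreated and 421 to 491 FPKM in the iRFA libraries, and did not follow the fibrillar collagens. The 15 skeletal muscle genes, led by Acta1, Tnnc2 and Tnnt3, summed to 238, 293 and 2.99 FPKM in the untreated and 43.7 to 72.2 FPKM in the iRFA libraries. With all libraries, 0 members of these 3 lists were called by limma. Without overlap between the groups, 11 of the 12 macrophage genes were higher after iRFA (11.4% of all genes were). Among the fibroblast genes 1 was lower without overlap (10.5% of all genes were), and among the muscle genes 0 were higher or lower. Without untreated replicate 3, 12 macrophage genes were higher, 8 fibroblast genes were lower and 1 higher, and 11 muscle genes were lower, against 33.9% of all genes higher and 30.3% lower.

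The lowest keratin values came in steps. In iRFA replicate 1 Krt8 was at 0.0265 FPKM, and its values in iRFA replicates 2 and 3 were 2.02 and 3.02 times that. For Krt23 the factors were 3.04 and 3.02. The pseudogene Krt8-ps was at 0.573, 0.677 and 0 FPKM in the untreated and 0, 0.0554 and 0.0552 FPKM in the iRFA libraries.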
